A study of Rattus norvegicus with 6 samples.

Results

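Calretinin, the product of Calb2, belongs to the EF-hand family, whose members carry helix-loop-helix motifs in which the loop can hold a calcium ion. Some EF-hand proteins, among them calretinin, calbindin and parvalbumin, act mainly as calcium buffers, while others, such as calmodulin and most S100 proteins, change shape on binding calcium and then bind target proteins. In the gonads calretinin is used in histology as a marker of Leydig cells, the interstitial cells that make testosterone, and it also marks mesothelium, the cell layer that covers the testis. The question addressed here was whether the low level of Calb2 mRNA in diabetic testes was shared by related calcium-binding proteins. The 10 genes described are Calb1, Calb2, Pvalb, S100a1, S100a4, S100a6, S100a10, S100a11, S100b and S100g. Each matched 1 of the 35291 genes in the deposited table by its symbol. They were chosen from results of the same comparison, because Calb2 was already known to be much lower in the diabetic rats, and the other 9 genes were added as its relatives. Their differences between the groups are therefore given as descriptions, with no p-value, and counts of them against a threshold are descriptions too.

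The data are RNA-Seq levels in 6 samples of testicular tissue of Sprague-Dawley rats, each sample being called a rat here. The 3 rats of the DM group had streptozotocin (STZ)-induced diabetes, and per the study's methods they had first been fed a high-fat diet and were sampled 8 weeks after the injection. The 3 rats of the ND group are labelled normal. The methods give them citrate buffer in place of STZ, but do not say whether they received the same diet, so diet, STZ and diabetes cannot be told apart. Levels are FPKM, a fragment count scaled to transcript length and to library size, as the authors calculated it. Depth in reads is unknown. A rough relative depth was read from the commonest ratio among low genes in each pair of rats, which only 32 to 57 genes shared. It was 0.966 to 1.09 in the DM rats and 0.893 to 1.02 in the ND rats. Log2 fold changes are DM minus ND on the scale log2(FPKM + 0.1), on which changes of low genes come out too small, and standard errors (SE) come from limma, fitted to the 20338 genes whose level averaged 0.5 FPKM or more over all rats. The labels number the samples but do not say that each is a separate animal, so errors and p-values measure only the spread between these samples, which may be technical. The tissue carried the RNA of its main cell types, with the germ cell gene Prm1 at 3227 to 4072 FPKM, the Sertoli cell gene Cldn11 at 30.9 to 37.0 FPKM and the Leydig cell gene Star at 7.70 to 41.5 FPKM.

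Calb2 (ENSRNOG00000016977) was at 2.30, 2.22 and 0.944 FPKM in ND rats 1, 2 and 3 and at 0.166, 0.0597 and 0.158 FPKM in DM rats 1, 2 and 3. Every DM rat lay below every ND rat, and ND rat 3 lay between the other ND rats and the DM rats. The means were 1.82 ± 0.761 FPKM in the ND group and 0.128 ± 0.0593 FPKM in the DM group (SD, n = 3 each), a ratio of 14.2. On the log2 scale the difference was -3.02 with a standard error of 0.44. Among all genes tested, 13 had a lower log2 fold change than Calb2. Its size depends on the pseudocount because the DM levels are near it: the log2 fold change was -1.28 with a pseudocount of 1 and -3.74 with 0.01. Without ND rat 3 it was -3.41. Calb2 reached the filter on low values only through the ND rats, with a mean over all rats below 1 FPKM.

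**Figure D1:**
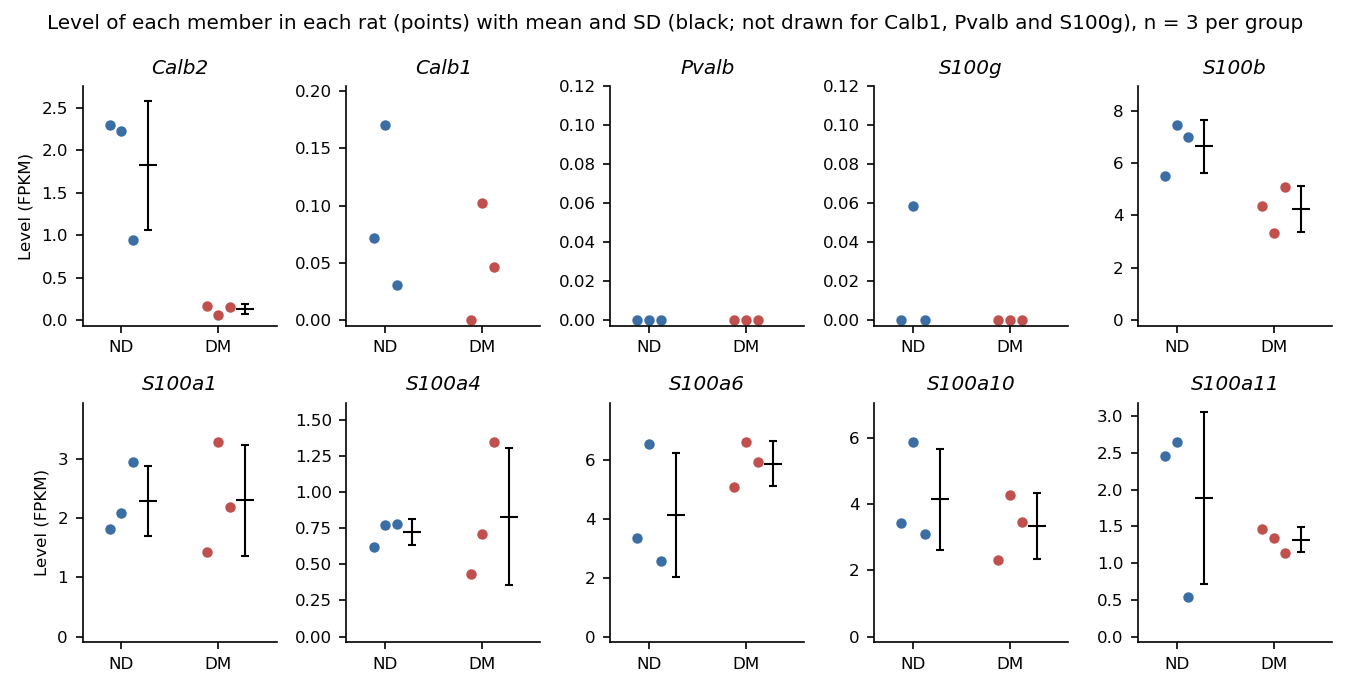
Level in FPKM (linear axes from 0, a separate scale in each panel) of the 10 genes in each rat, with ND rats in blue and DM rats in red; black bars are the mean and SD of 3 rats, not drawn for Calb1, Pvalb and S100g. Only in the panels of Calb2 and S100b do all DM points lie below all ND points.

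The other calcium buffers among the 10 genes were hardly detected in these testes. Calb1, which encodes calbindin, a buffer of neurons and of the distal tubule of the kidney, was listed at 0, 0.102 and 0.0462 FPKM in the DM rats and at 0.0713, 0.170 and 0.0308 FPKM in the ND rats, so the groups overlapped. Pvalb, the parvalbumin of fast muscle fibres and of some interneurons, was listed at 0 in all 6 rats. S100g, the small calbindin of the intestine, was listed at 0 in 5 rats and at 0.0587 FPKM in ND rat 2. These 3 genes stayed below the filter, and no change like that of Calb2 could be detected at such levels. Among the calcium buffers of the 10 genes, Calb2 alone passed the filter. Of the 3 other genes named as relatives of calbindin and parvalbumin, Ocm was not analysed here, Scgn (secretagogin, of the same subfamily as calretinin) was at 0.161 to 0.546 FPKM in the 6 rats, and Ocm2, an oncomodulin of the parvalbumin type, was at 0.654 to 1.45 FPKM. The groups of Ocm2 overlapped, and its log2 fold change was 0.0071 ± 0.36 (SE).

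Most S100 proteins are small dimers that bind target proteins after calcium binding. Of the 7 S100 genes among the 10, S100b, best known from glial cells, was the one whose groups did not overlap. It was at 5.51, 7.46 and 6.99 FPKM in the ND rats and at 4.36, 3.32 and 5.09 FPKM in the DM rats. The gap between the lowest ND rat and the highest DM rat was small beside the spread within each group. The means were 6.65 ± 1.02 and 4.26 ± 0.891 FPKM (SD, n = 3 each), with a log2 fold change of -0.64 and a standard error of 0.18, and the value without each rat in turn ranged from -0.78 to -0.48. Of the glial genes, Sox10, a defining transcription factor of Schwann cells, was at most 0.158 FPKM in any rat, and Gfap, a glial filament gene, was at 0.537 to 0.624 FPKM in the ND rats and 0.383 to 0.753 FPKM in the DM rats, with overlapping groups.

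S100a6 (calcyclin, a partner of annexins and of the Cacybp protein) was at 3.35, 6.53 and 2.55 FPKM in the ND rats and at 5.09, 6.63 and 5.92 FPKM in the DM rats. ND rat 2 fell within the range of the DM rats, and the other ND rats lay below it. Its log2 fold change was 0.598 ± 0.32 (SE), the highest of the 7 genes that passed the filter, and in the opposite direction to that of Calb2. It was 0.98 without ND rat 2 and 0.31 without ND rat 3. S100a10, the partner of annexin A2 that has lost calcium binding, was at 3.42, 5.89 and 3.11 FPKM in the ND rats and at 2.30, 4.27 and 3.46 FPKM in the DM rats. S100a11, which binds annexin A1, was at 2.46, 2.66 and 0.534 FPKM in the ND rats and at 1.47, 1.35 and 1.14 FPKM in the DM rats. In S100a11 as in Calb2, ND rat 3 was the lowest ND rat, but here it lay below all DM rats. The log2 fold changes were -0.29 ± 0.30 for S100a10 and -0.22 ± 0.54 for S100a11 (± SE), and both moved with single rats. That of S100a10 was -0.0099 without ND rat 2, -0.049 without DM rat 1 and -0.48 without DM rat 2, and that of S100a11 was -0.91 without ND rat 3, 0.094 without ND rat 1 and 0.15 without ND rat 2.

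S100a1, known from heart muscle where it acts on calcium release channels and pumps, was at 1.81, 2.09 and 2.94 FPKM in the ND rats and at 1.42, 3.29 and 2.18 FPKM in the DM rats. S100a4, known from fibroblasts and migrating cells, was at 0.621, 0.774 and 0.781 FPKM in the ND rats and at 0.431, 0.712 and 1.35 FPKM in the DM rats. For both genes the DM rats spanned the whole range of the ND rats. Their log2 fold changes were -0.039 ± 0.32 and 0.058 ± 0.39 (± SE), and each changed sign when single rats were left out, with ranges of -0.33 to 0.25 for S100a1 and -0.32 to 0.40 for S100a4. The 7 S100 genes together summed to 17.2, 25.5 and 16.9 FPKM in the ND rats and to 15.1, 19.6 and 19.1 FPKM in the DM rats, with overlapping groups. Per unit of length, the order of mean levels in the ND rats was S100b, S100a6, S100a10, S100a1, S100a11, Calb2, S100a4 and Calb1, followed by S100g and Pvalb. The ranges of S100b, S100a6 and S100a10 overlapped from each to the next, as did those of S100a1, S100a11 and Calb2. Gaps lay between S100a10 and S100a1, between Calb2 and S100a4, and between S100a4 and Calb1. In the DM rats Calb2 stood below S100a4, with no overlap between them, and overlapped Calb1 instead.

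By the study's criterion (log2 fold change of 1 or more in size, unadjusted p-value under 0.05), 1 of the 10 genes was counted as lower in the DM rats (Calb2) and 0 as higher, where over all genes tested 0.846% were lower and 0.398% were higher. An adjusted p-value under 0.05 in limma was reached by 0 of the 10 and by 0.0344% of all genes. The groups did not overlap, with the DM rats lower, for 2 genes, Calb2 and S100b, against 8.42% of all genes tested, and in 0 of them with the DM rats higher, against 4.56%. Since 7 of the 10 genes passed the filter and Calb2 was the reason for the choice, nothing is read from these counts.

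The wider EF-hand family was then described by lists of its subfamilies. Of 75 other EF-hand genes listed by family, 71 symbols were in the table, in 72 rows because Calm2 labels a pair of genes, and 55 rows passed the filter. Among these, 1 gene met the criterion with a lower level in the DM rats and 0 with a higher level. The shares over all genes tested were 0.846% and 0.398%. In limma 0 of the 55 had an adjusted p-value under 0.05, against 0.0344% of all genes tested. An unadjusted limma p-value under 0.05 was reached by 4 lower genes and 1 higher gene. By that measure 4.99% of all genes tested were lower and 2.47% higher. The median log2 fold change was -0.033, against -0.021 over all genes tested, and the range was -1.31 to 0.55. Groups did not overlap for 8 lower and 3 higher genes of the 55, against 8.42% and 4.56% of all genes tested. None of the 55 had a difference as large as that of Calb2.

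**Figure D2:**
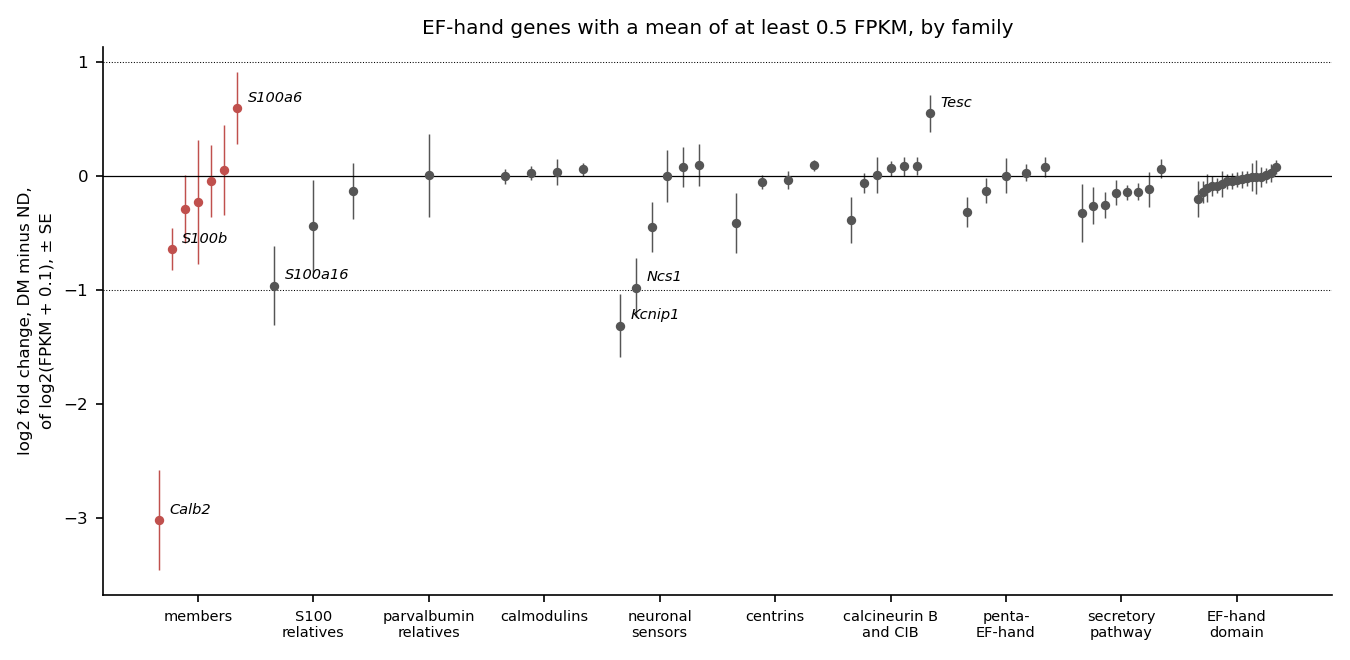
Log2 fold change, DM minus ND, of log2(FPKM + 0.1) with its limma standard error for the 7 described genes (red) and 55 other EF-hand genes (grey) that passed the filter, ordered within each family; dotted lines mark 1 and -1. Calb2 lies at -3.02, Kcnip1 at -1.31, and the remaining genes lie between -0.98 and 0.598.

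The 1 gene that met the criterion was Kcnip1, which encodes a neuronal calcium sensor protein that binds Kv4 potassium channels. It was at 15.9, 13.5 and 12.9 FPKM in the ND rats and at 4.91, 8.91 and 4.002 FPKM in the DM rats. The groups did not overlap, and DM rat 2 stood nearest to the ND rats. The means were 14.1 ± 1.58 and 5.94 ± 2.61 FPKM (SD, n = 3 each), a ratio of 2.37. The log2 fold change of Kcnip1 was -1.31 ± 0.27 (SE) and an adjusted p-value of 0.322 from limma, and the exact permutation test gave p = 0.1, its lowest possible value with 3 rats per group. When single rats were dropped it stayed between -1.64 and -1.07. Kcnip1 was thus expressed at a higher level than any of the 10 genes in the ND rats, and DM rat 2, the lowest for Calb2, was the highest DM rat for Kcnip1.

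The other sensors of the neuronal type did not meet the criterion. Hpcal1, a hippocalcin-like protein, was at 8.18, 8.18 and 5.42 FPKM in the ND rats and at 6.82, 4.66 and 4.44 FPKM in the DM rats, with overlapping groups and a log2 fold change of -0.45 (limma, adjusted p = 0.734). Hpcal4 had a log2 fold change of 0.098. The 4 further genes with an unadjusted p-value under 0.05 are described next, of which Ncs1, Gca and Tesc were picked after their values were seen. Ncs1, neuronal calcium sensor protein, was at 1.11, 1.06 and 1.21 FPKM in the ND rats and at 0.632, 0.574 and 0.390 FPKM in the DM rats, with a log2 fold change of -0.98 (limma, adjusted p = 0.468). S100a16, the nearest neighbour but one of S100a4 in the RefSeq gene order (assembly GRCr8), was at 1.09, 0.824 and 0.631 FPKM in the ND rats and at 0.340, 0.528 and 0.296 FPKM in the DM rats. Its log2 fold change was -0.96 (limma, adjusted p = 0.613). Gca, the grancalcin of white blood cells, had a log2 fold change of -0.32 (limma, adjusted p = 0.664). Tesc, tescalcin, a calcineurin-like EF-hand protein, went the other way, at 2.29, 2.75 and 2.31 FPKM in the ND rats and 3.15, 4.42 and 3.42 FPKM in the DM rats. Its log2 fold change was 0.55 (limma, adjusted p = 0.517). For each of these 4 genes the groups did not overlap.

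The other S100 genes that passed the filter, S100z and S100a13, had overlapping groups and log2 fold changes of -0.44 and -0.13, with standard errors of 0.41 and 0.25. Of the S100 genes below it, S100a8, an abundant protein of neutrophils, was listed at 0 in all DM rats and at 0.0746, 0.299 and 0.249 FPKM in the ND rats. Its partner S100a9 was at 0.112 FPKM in 1 DM rat and at 0 in the others, and at 0.107, 0.796 and 0 FPKM in the ND rats. S100a7a was listed at 0 throughout, and S100a3 and S100a5 were at or below 0.378 FPKM in every rat.

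The abundant EF-hand genes of the testis differed little between the groups. Calm3, a calmodulin gene, was at 417 ± 20.5 FPKM in the DM rats and 409.7 ± 16.4 FPKM in the ND rats (SD, n = 3 each), and the rows labelled Calm2 had log2 fold changes of 0.059 and -0.0014. The calmodulin genes encode the same protein with similar sequences, so fragments could have been assigned among them with some error. Cetn1, the centrin of male germ cells, was at 288 ± 3.27 FPKM in the ND rats and at 307 ± 6.57 FPKM in the DM rats (SD, n = 3 each), with groups that did not overlap and a log2 fold change of 0.095 (limma, adjusted p = 0.736). Cetn4 and Cetn3 had log2 fold changes of -0.052 and -0.033. Ppp3r2, the calcineurin B subunit of the testis, was at 243 ± 20.9 and 228 ± 16.7 FPKM in the DM and ND rats (SD, n = 3 each). Cib1 and Cib4, which bind integrins or related partners, had log2 fold changes of 0.0895 and 0.011. The penta-EF-hand genes Sri (sorcin), Capns1 (the small calpain subunit) and Pdcd6 had log2 fold changes of 0.0047, 0.080 and 0.032. Among genes of the secretory pathway, Sdf4 was at 0.066, Rcn1 at -0.11 and Sparc, a matrix-associated glycoprotein, at -0.26 on the log2 scale. Of the 17 genes tested with EF-hand domains as their main feature, many of them linked to the sperm flagellum, log2 fold changes ran from -0.20 to 0.080. Efcab6 and Spata21, among the highest of them, had values of -0.046 and -0.044.

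The binding partners of S100 proteins were examined next. Of the 8 genes listed, 7 passed the filter and 0 met the criterion, which 0.846% of all genes tested met as lower and 0.398% as higher. Their median log2 fold change was -0.23. Of the 7, 3 (Anxa2, Anxa5 and Anxa6) had lower DM groups that did not overlap with the ND groups, against 8.42% of all genes tested. Anxa2, the partner of S100a10, was at 15.2, 16.7 and 14.9 FPKM in the ND rats and at 14.3, 11.7 and 13.4 FPKM in the DM rats, a log2 fold change of -0.25 ± 0.097 (SE; limma, adjusted p = 0.649). Anxa5 had a log2 fold change of -0.34 ± 0.11 (SE; limma, adjusted p = 0.555). Cacybp, the partner of S100a6, was at 0.0039 on the log2 scale.

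Because calretinin marks Leydig cells, their genes were set beside Calb2. In bulk tissue, fewer cells of a type and less RNA per cell cannot be told apart. Of the 8 Leydig cell markers listed, 7 were in the table, all 7 passed the filter and all 7 had lower mean levels in the DM rats. The criterion was met by 5 of them, against 0.846% of all genes tested, and the median log2 fold change was -1.24. Cyp17a1, the hydroxylase that leads to androgens, was at 24.3, 36.1 and 26.3 FPKM in the ND rats and at 9.59, 8.84 and 9.65 FPKM in the DM rats, a log2 fold change of -1.60 (limma, adjusted p = 0.0415). Its adjusted p was under 0.05 in 9 of 16 alternatives and ranged from 0.00511 to 0.186, the latter with a replicate block, and it was 0.107 to 0.147 without DM rat 1, DM rat 2, DM rat 3 or ND rat 3. Lhcgr, the receptor of luteinising hormone, was at 4.45, 5.03 and 4.68 FPKM in the ND rats and at 2.32, 2.32 and 2.29 FPKM in the DM rats. Its log2 fold change of -0.999 fell just short of the criterion (limma, adjusted p = 0.0559). Insl3, a peptide hormone of Leydig cells, was at 8.06, 10.8 and 10.5 FPKM in the ND rats and at 1.89, 2.26 and 6.86 FPKM in the DM rats. The log2 fold changes of Insl3, Hsd17b3, Star and Cyp11a1 were -1.62, -1.26, -1.24 and -1.16, and that of Hsd11b1 was -0.79, with adjusted p-values of 0.484 to 0.649 in limma for these 5 genes. The groups of Hsd17b3 and Hsd11b1 overlapped. The summed level of the 7 markers was 91.9 to 128 FPKM in the ND rats and 30.5 to 65.3 FPKM in the DM rats. Without DM rat 2, which was the lowest rat for Cyp11a1, Star, Hsd17b3 and Hsd11b1, 3 markers met the criterion.

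**Figure D3:**
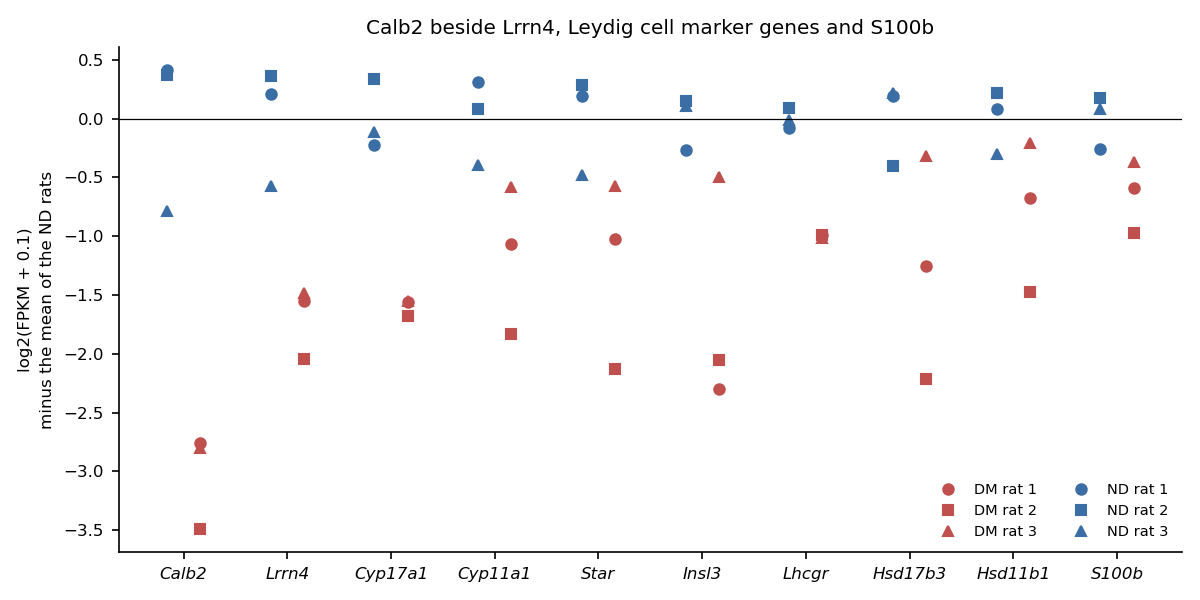
Log2(FPKM + 0.1) of each rat minus the mean of the 3 ND rats, for Calb2, Lrrn4, 7 Leydig cell markers and S100b; blue symbols are ND rats and red symbols DM rats, with 1 symbol shape per rat number. The DM rats lie farther below the ND mean for Calb2 (mean difference -3.02) than for any of the other genes shown (-1.69 to -0.64), an order that changes with a pseudocount of 1, where Calb2 (-1.28) lies above Cyp17a1 (-1.51) and Insl3 (-1.35).

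The ratio of ND to DM mean levels, which needs no pseudocount, was 14.2 for Calb2 and 1.65 for Hsd11b1 to 3.09 for Cyp17a1 among these markers. On the log2 scale the comparison depends on the pseudocount. The mean log2(FPKM + 0.1) of the 7 markers was 3.52, 3.6 and 3.35 in the ND rats and 2.22, 1.72 and 2.81 in the DM rats, a difference of -1.24. Calb2 minus this mean was -2.26, -2.38 and -3.29 in the ND rats and -4.13, -4.37 and -4.77 in the DM rats. The groups did not overlap, and the difference between them was -1.78. DM rat 3, with the highest Leydig markers of the DM rats, had a Calb2 level like that of DM rat 1. With a pseudocount of 1 it was -0.23 and the groups overlapped, and with 0.01 it was -2.48 (settings chosen after the data were seen). It was not tested, since Calb2 was chosen for its own difference.

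Calretinin also marks mesothelium. Of 4 mesothelial markers, 3 passed the filter, all but Msln, with a median log2 fold change of -0.34. The criterion was met by 1 of them, Lrrn4, against 0.846% of all genes tested that met it as lower. Groups did not overlap, with the DM rats lower, for 8.42% of all genes tested. Lrrn4 was at 3.41, 3.79 and 1.94 FPKM in the ND rats and at 0.934, 0.637 and 0.987 FPKM in the DM rats. As for Calb2, ND rat 3 was the lowest ND rat and DM rat 2 the lowest DM rat. This order was not particular to Lrrn4. It also held for the Leydig cell markers Cyp11a1, Star and Hsd11b1, though not for the other Leydig cell markers, and for the adipocyte marker Fabp4. The log2 fold change of Lrrn4 was -1.69 ± 0.29 (SE; limma, adjusted p = 0.234), and the exact permutation test gave p = 0.1, the smallest possible. Msln, the defining mesothelin gene, was near 0, at 0.0746, 0.0563 and 0.131 FPKM in the ND rats and at 0.0188 to 0.0272 FPKM in the DM rats, so that its groups did not overlap either. Upk3b was at 1.23 to 2.36 FPKM in the ND rats and 1.46 to 2.13 FPKM in the DM rats, with a log2 fold change of -0.013, and Krt19 had one of -0.34. The summed level of the 4 markers was 6.31 to 10.5 FPKM in the ND rats and 5.32 to 6.17 FPKM in the DM rats. These sums, which include Lrrn4, did not overlap, but the groups of Upk3b and of Krt19 did. The part of either cell type in the difference of Calb2 was not tested.

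The markers of other cell types were also set beside Calb2. Of the 8 macrophage markers, 1 met the criterion (Cd74, log2 fold change -1.08) and 8 had lower mean levels, with a median of -0.78. Over all 20338 genes tested, 11313 had a negative log2 fold change, and 0.846% met the criterion with a lower level in the DM rats. Groups did not overlap for 8.42% of all genes tested with the DM rats lower and for 4.56% with the DM rats higher. The groups of Mrc1, Cd163 and Adgre1 overlapped, with log2 fold changes of -0.064, -0.23 and -0.13, and those of the other macrophage markers did not. Summed levels were 34.6 to 40.6 FPKM in the DM rats and 45.3 to 54.2 FPKM in the ND rats. Of the adipocyte markers, 2 of 5 passed the filter and 1 met the criterion, Cfd at -1.17, with sums of 4.64 to 5.54 FPKM and 6.69 to 9.07 FPKM in the DM and ND rats. Adipoq was at 3.04 to 3.845 FPKM in the DM rats and 3.849 to 5.25 FPKM in the ND rats, and Fabp4 at 0.221 to 0.338 and 0.496 to 0.910 FPKM, with every DM rat below every ND rat for both. Lep was higher in every DM rat (0.142 to 0.155 FPKM) than in any ND rat (0.0271 to 0.0767 FPKM), and Plin1, at most 0.357 FPKM, overlapped between the groups. No Sertoli, germ cell, endothelial or smooth muscle marker met the criterion, and their medians were 0.11, -0.016, -0.15 and -0.14. The sums of these 4 lists overlapped between the groups. The 4 epididymal markers were at or near 0, with sums of at most 0.179 FPKM. The part of these cells in the values of Calb2 and S100b was not tested.

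**Figure D4:**
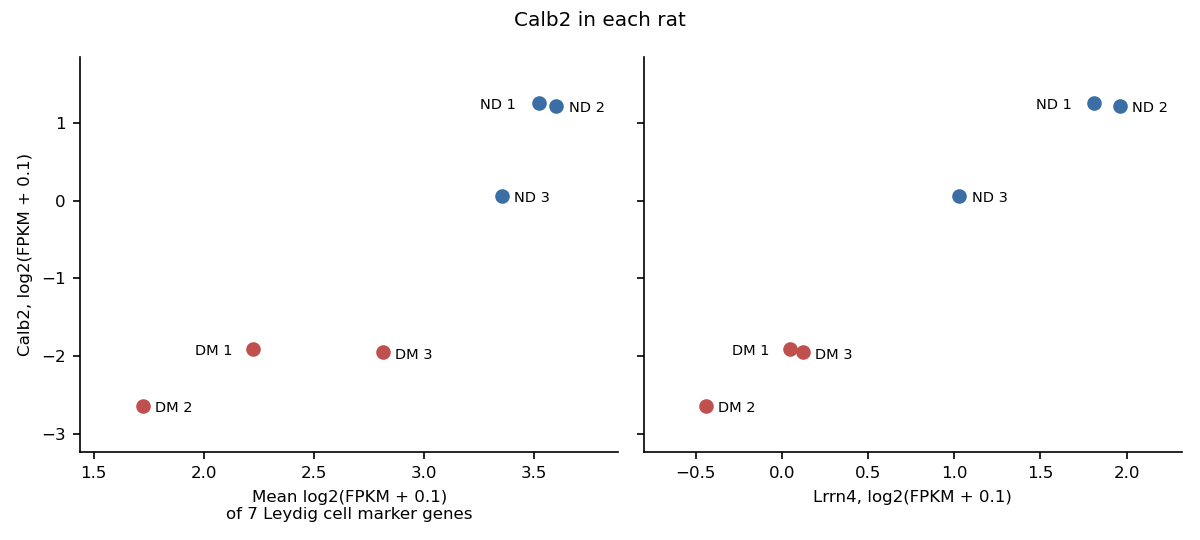
Calb2 against the mean of 7 Leydig cell markers (left) and against Lrrn4 (right) in each of the 6 rats, all as log2(FPKM + 0.1); blue points are ND rats and red points DM rats. Calb2 in ND rat 3 lies between the other rats of both groups, at 0.063, and so does Lrrn4.

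The genes whose levels over the 6 rats were most like those of Calb2 were found by Pearson's r of log2(FPKM + 0.1), among 14988 genes with a symbol and a mean of at least 1 FPKM. With 6 rats in groups that stand apart, r mostly ranks how cleanly a gene separates them, and it is given as a description. The highest was Lrrn4 (r = 0.995), followed by Prlr, the prolactin receptor (0.993), Cxcl12, a chemokine (0.991), Cat, catalase (0.990), Tmem164 (0.990), Podxl, podocalyxin (0.989), Mgat4c (0.989) and Raver2 (0.988). Their log2 fold changes ran from -1.69 for Lrrn4 to -0.46 for Mgat4c, so all 8 were smaller than that of Calb2. Prlr was at 3.503, 3.56 and 2.76 FPKM in the ND rats and at 1.22, 0.872 and 1.28 FPKM in the DM rats. Among the 10 genes the value nearest to that of Calb2 was r = 0.824 for S100b, and S100a6 had -0.458.

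The position of Calb2 in the genome gave 3 neighbours with values. In the RefSeq gene order (assembly GRCr8, protein-coding genes), Cmtr2, next to Calb2, was at 1.90, 1.74 and 1.74 FPKM in the ND rats and at 1.55, 1.28 and 1.36 FPKM in the DM rats, a log2 fold change of -0.34 (limma, adjusted p = 0.713). Zfp612 and Hydin, the second genes on either side, had values of -0.0023 and 0.048. S100a16, S100a4 and S100a6 lie close together in the same order, with log2 fold changes of -0.96, 0.058 and 0.598.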

How the data were processed

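RNA-Seq of 6 rat testis samples was used, 3 per group by the labels. The authors checked reads with FastQC, compared them with rRNA by BWA, aligned them with STAR and quantified transcripts with StringTie, and deposited FPKM per gene. Versions, genome build and annotation are not given in the sources used here. The levels were analysed in R 4.3.3 with limma 3.58.1 (lmFit, eBayes with a trend) on log2(FPKM + 0.1) over the 20338 of 35291 genes averaging 0.5 FPKM or more, with Benjamini-Hochberg adjustment over all of them. All tests were two-sided, and single genes were also compared by the exact permutation test. FPKM are not counts, so the study's DESeq2 screen was not repeated. The 10 genes and all lists were chosen with earlier results of these data known. Named are the 10 genes, the Leydig markers, EF-hand and partner genes past the criterion, the up to 3 highest genes of each such list, and the 8 genes most like Calb2. Alternatives were other pseudocounts, filters, scalings and eBayes settings, a replicate block, summed symbols, protein-coding genes only (by RefSeq, GRCr8) and leaving out each rat. The number of per-sample columns left unused was 0. Some genes that the rule or lists would name are not reported here.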

Additional observations from a re-analysis of the deposited data

How the results depend on the processing

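The log2 fold change of Calb2, -3.02, was -1.28 with a pseudocount of 1 and -3.74 with 0.01, and from -3.41 to -2.78 when single rats were dropped. The DM levels of Calb2 lie near the pseudocount. With a mean of at least 1 FPKM, Calb2 was not tested, so that 0 of the 10 genes met the criterion. The count of 1 other EF-hand gene that met it, Kcnip1, was 3 with a pseudocount of 0.01 and after rescaling to TPM (Ncs1 and S100a16 added), 2 without a filter (S100a8 added), and 1 to 3 with each rat left out. Kcnip1 met it in every alternative run. The count of 5 Leydig cell markers was 3 to 6 with each rat left out, and 3 came without DM rat 2. The difference of Calb2 minus the mean of these markers, -1.78, was -0.23 with a pseudocount of 1 and -2.48 with 0.01, settings chosen after the data were seen. For the 6 other genes of the 10 that passed the filter, 95 of 95 alternative log2 fold changes lay within 1 residual SD of the fit. This SD was 0.27 for S100b to 0.85 for S100a11, the least precise. Nothing is read from this count, since with 3 rats per group leaving out 1 rat cannot move a value that far. Several other settings leave the value unchanged. With single rats dropped, S100a11 reached -0.91 and S100a6 ran from 0.31 to 0.98. Of the 95 values, 6, in S100a1, S100a4 and S100a11, had the opposite sign, each with 1 rat left out. Same-numbered rats deviated from their group means with correlations of 0.106, 0.0153 and 0.0979. These were not compared with differently numbered rats, so whether same-numbered samples share a batch was not tested. Blocking on replicate number, the log2 fold change of Calb2 was -3.02 with a standard error of 0.47. The fold change itself cannot move with this block, since each number occurs once in each group. With the block, 1 of the 10 genes and 1 other EF-hand gene met the criterion, as without it. The depth in reads is unknown, so levels below 0.2 FPKM, such as those of Calb2 in the DM rats, may rest on few fragments.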
